A study of Homo sapiens with 12 samples.

Results

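The GATA6 locus was examined in the H3K27ac landscape of 3 untreated human pancreatic cancer cell lines, SUIT2, BxPC3 and Panc327. Its members were all called peaks overlapping a 450 kb window of chromosome 18, from 19550000 to 20000000 on the hg19 build. The GATA6 gene body was taken at about 19749400 to 19782500 on the plus strand. The window held 47 of the 190767 peaks of the 6 peak lists on chromosomes 1 to 22 and X, and they merged into 20 of 58994 regions. The window was set by position, not by measured values. Each line gave 2 H3K27ac ChIP-seq libraries, each with its own peak list, and 2 input libraries, whose own values were not analysed here. SUIT2 was derived from a metastatic and BxPC3 from a primary pancreatic carcinoma, and the labels do not give the origin of Panc327. All cells were grown under standard conditions, without treatment, and the chromatin was crosslinked with paraformaldehyde. The labels do not say whether the 2 libraries of a line came from separate cultures, so every spread given here is one between libraries. The labelled cell type could not be set against marker genes, because no gene positions on hg19 other than that of GATA6 were used.

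GATA6 is a zinc-finger transcription factor that binds GATA sequences and is needed for the formation of endodermal organs, the pancreas among them. In pancreatic ductal adenocarcinoma its expression marks the classical, more epithelial subtype, and it is low in the basal-like subtype. H3K27ac, acetylation of lysine 27 of histone H3, is found at active promoters and enhancers. Genes that set cell identity often carry it over broad domains and over distal enhancers far from the gene start. In the gene order of RefSeq (GRCh38.p14), MIB1 is the protein-coding neighbour before GATA6 and CTAGE1 the one after it. The long non-coding RNA gene GATA6-AS1 comes immediately before GATA6, on the opposite strand. Non-coding genes also follow GATA6 in the gene order, and which gene the downstream peaks belong to was not determined.

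The promoters of GATA6 and GATA6-AS1 are shown because the broadest H3K27ac peak of the window lay over the GATA6 start and reached upstream of it. Each runs from 250 bases before the gene start to 50 bases after it, 5′ to 3′ on the gene's own strand, from RefSeq on GRCh38.p14. Capitals mark a CCAAT box (CCAAT) or a GC box (GGGCGG) on either strand.
GATA6, plus strand: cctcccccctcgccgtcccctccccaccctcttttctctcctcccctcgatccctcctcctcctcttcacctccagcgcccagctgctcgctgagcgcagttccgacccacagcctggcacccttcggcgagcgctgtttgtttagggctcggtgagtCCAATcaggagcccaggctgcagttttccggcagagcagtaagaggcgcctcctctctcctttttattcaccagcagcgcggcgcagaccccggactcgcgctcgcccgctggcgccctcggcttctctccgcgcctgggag
GATA6-AS1, minus strand: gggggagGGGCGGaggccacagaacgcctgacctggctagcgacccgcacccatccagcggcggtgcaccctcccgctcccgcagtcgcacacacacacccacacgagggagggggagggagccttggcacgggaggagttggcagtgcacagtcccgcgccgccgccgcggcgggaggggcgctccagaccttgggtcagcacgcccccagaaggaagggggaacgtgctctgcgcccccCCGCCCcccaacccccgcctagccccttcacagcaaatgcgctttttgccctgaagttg
The GATA6 promoter held 1 CCAAT box, starting 92 bases before the gene start, and 0 GC boxes. The GATA6-AS1 promoter held 2 GC boxes and 0 CCAAT boxes. Of 35116 RefSeq promoters of this length, 34.6% held a CCAAT box and 45.0% a GC box. Neither promoter held AGATAA, the letters of a GATA site, which 10.3% of promoters held, or TGACTCA, those of an AP-1 site, which 4.95% held. Both strands were searched, and no marked matches overlapped. Both promoters held 25 CpG dinucleotides, against a median of 14 over all promoters, and 68.0% of promoters held fewer than 25. These sequences were not placed on hg19, so the position of GATA6-AS1 within the peak was not determined.

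Called H3K27ac covered the most of the window in SUIT2, less in BxPC3 and almost none in Panc327. Called peaks covered 38.8 and 41.9 kb of the window in SUIT2 replicates 1 and 2, 20.7 and 22.7 kb in BxPC3, and 2.96 and 0.340 kb in Panc327. The lines did not overlap: each SUIT2 library lay above each BxPC3 library, and each BxPC3 library above both of Panc327. The means were 40.4 ± 2.17 kb in SUIT2, 21.7 ± 1.44 kb in BxPC3 and 1.65 ± 1.85 kb in Panc327 (SD, n = 2 each). These totals were 8.63 and 9.31% of the window in SUIT2, 4.60 and 5.05% in BxPC3, and 0.658 and 0.0756% in Panc327. The gaps between lines were larger than those between libraries of a line. An exact permutation test over the 15 ways of splitting 6 libraries into pairs gave p = 0.0667, the smallest these splits allow, so the design cannot reach 0.05. Each pair of lines alone allows no p under 0.333.

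The order of each pair of lines was common over the genome, while the gaps at GATA6 were among the larger ones. Of 5379 windows of the same length with a peak in any library, 47.8% had both SUIT2 libraries above both BxPC3 libraries, 53.7% had both SUIT2 above both Panc327, and 51.7% had both BxPC3 above both Panc327. The full order, SUIT2 above BxPC3 above Panc327 in all libraries, was found in 18.8% of windows. SUIT2 covered 18.7 kb more than BxPC3 at GATA6, against a median difference of 0.304 kb over those windows, and 95.4% of them had a smaller difference. BxPC3 covered 20.1 kb more than Panc327, above 98.4% of windows, and SUIT2 38.7 kb more than Panc327, above 98.5%. The median window covered 6.29 and 6.67 kb in SUIT2 and 5.45 and 6.20 kb in BxPC3, and windows with so little called length cannot show such gaps. The gaps were not ranked among windows of like coverage. Within each library, the GATA6 window covered more than 94.9 and 95.2% of windows in SUIT2 and 87.6 and 87.5% in BxPC3. In Panc327 it stood above 51.4% of windows in replicate 1 and above 26.0% in replicate 2.

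**Figure D1:**
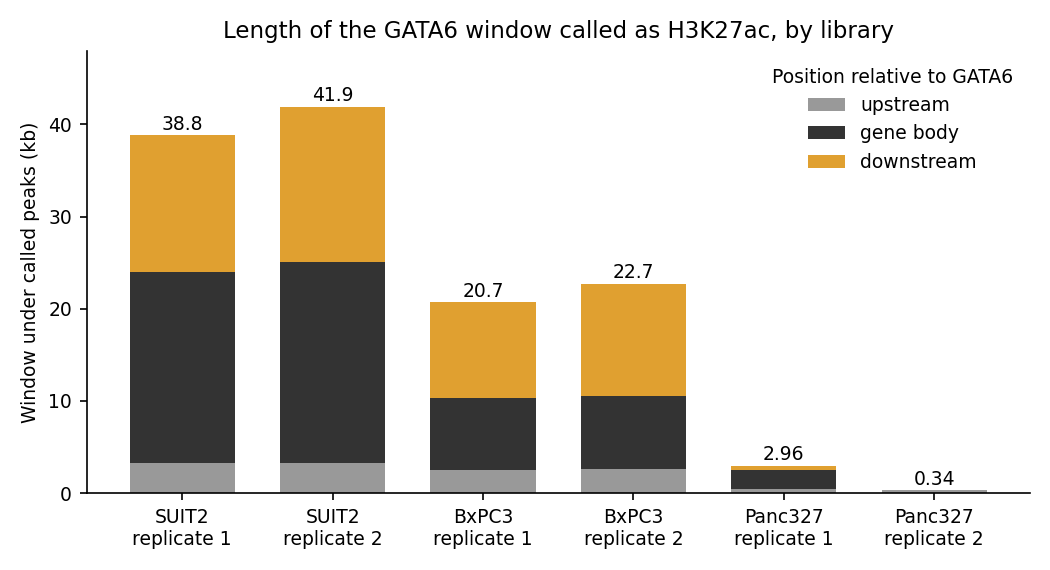
Kilobases of the 450 kb window under called H3K27ac peaks in each library (vertical axis, linear from 0), stacked by position relative to GATA6; the number above each bar is the library's total. SUIT2 libraries reach 38.8 and 41.9 kb, BxPC3 20.7 and 22.7 kb and Panc327 2.96 and 0.340 kb, and the gene body takes the largest share of the SUIT2 bars.

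The difference between SUIT2 and BxPC3 was largest in the gene body. Peaks covered 62.6 and 65.6% of the 33.1 kb gene body in SUIT2, 23.5 and 23.9% in BxPC3, and 6.30 and 0% in Panc327. That came to 21.2 ± 0.718 kb in SUIT2 against 7.85 ± 0.0997 kb in BxPC3 (SD, n = 2 each), 2.70 times as much. Downstream of the gene the ratio was 1.40, with 15.8 ± 1.45 kb in SUIT2 and 11.3 ± 1.27 kb in BxPC3. The whole peak lists also covered more in SUIT2, 60.1 and 63.3 Mb against 48.7 and 54.6 Mb in BxPC3. Upstream of the gene, peaks covered 3.31 and 3.31 kb in SUIT2, 2.49 and 2.58 kb in BxPC3, and 0.466 and 0.340 kb in Panc327. In SUIT2 and BxPC3, all of these upstream bases belonged to the peak over the gene start. Before that peak lay a stretch without any peak, 423 kb long in both SUIT2 libraries and 425 and 388 kb long in BxPC3 replicates 1 and 2. Apart from 1 peak in Panc327 replicate 2, called H3K27ac thus lay at the gene start, over the gene and downstream of it.

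**Figure D2:**
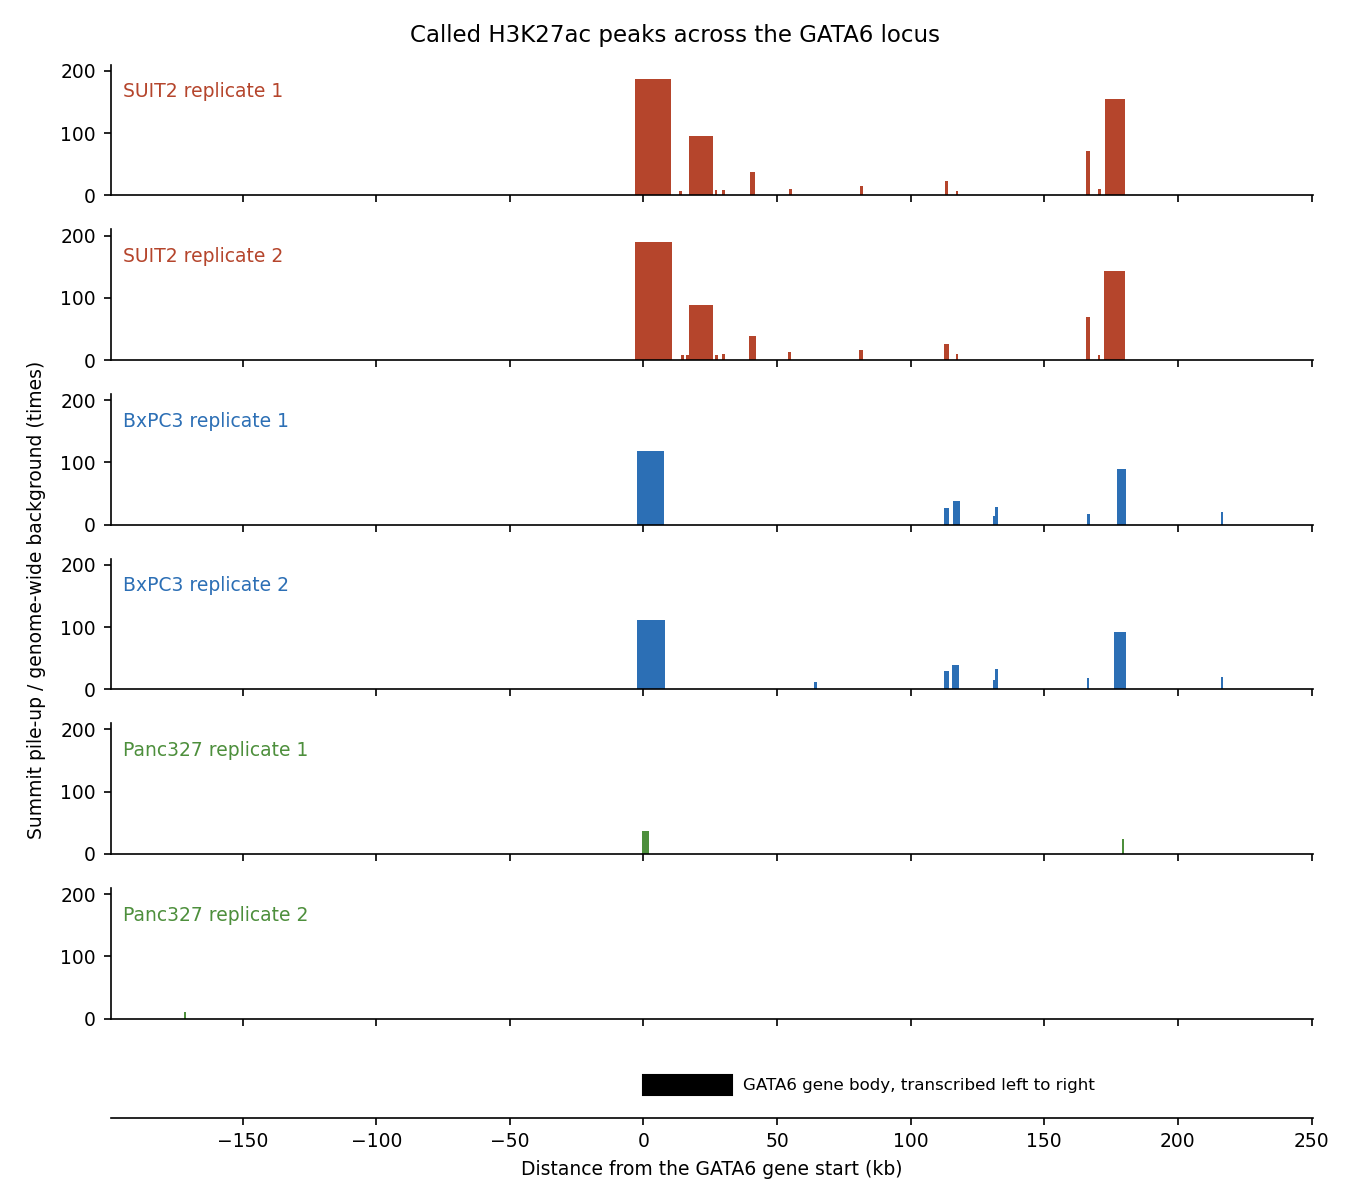
Called H3K27ac peaks of the 6 libraries over the window, drawn to scale by distance from the GATA6 gene start (horizontal axis, kb; the narrowest peaks are widened to stay visible). Bar height is the pile-up at the summit, in multiples of the library's genome-wide background, drawn over the whole peak; the tallest bars are 187 and 190 times in SUIT2, 119 and 111 times in BxPC3, and 37.0 and 11.2 times in Panc327.

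Heights below are relative pile-ups: the reads piled up at a peak's summit, divided by the genome-wide background of that library. They were recovered from the fold and p of each peak. This background stood at 3.29 and 3.61 reads in SUIT2, 1.96 and 2.37 in BxPC3, and 1.46 and 2.85 in Panc327. The BxPC3 values are in scaled reads, at fitted scales of 0.7518 and 0.6516. The background therefore does not rank the lines by sequencing depth, which the lists do not give. A peak at that background needed a relative pile-up of at least 6.08 and 5.82 to be called in SUIT2, 8.42 and 7.43 in BxPC3, and 9.60 and 6.66 in Panc327. The lists held 27776 to 38335 peaks that covered 34.1 to 63.3 Mb of the genome, and median relative pile-ups ran from 19.3 in Panc327 replicate 2 to 46.6 in Panc327 replicate 1. A relative pile-up also depends on how well the immunoprecipitation worked, which was not measured.

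A broad peak lay over the GATA6 start in 5 of the 6 libraries. The SUIT2 peak spanned 19746093 to 19759846 in replicate 1 and 19746090 to 19760119 in replicate 2, widths of 13.8 and 14.0 kb. The BxPC3 peak spanned 19746912 to 19757182 and 19746825 to 19757323 in replicates 1 and 2, widths of 10.3 and 10.5 kb. In Panc327 replicate 1 it was 2.55 kb wide, from 19748934 to 19751485, and Panc327 replicate 2 had no peak there. The edges agreed within 3 bp upstream and 273 bp downstream in the SUIT2 pair, and within 87 and 141 bp in the BxPC3 pair. The SUIT2 peak extended past the BxPC3 peak on both sides. Peaks were also wider over the whole SUIT2 lists, with median widths of 1504 and 1481 bp against 1070 and 1030 bp in BxPC3. A wider SUIT2 peak is therefore not particular to this locus.

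The peak over the start was among the broadest of the SUIT2 and BxPC3 lists. By width it ranked 137 and 149 in SUIT2 and 51 and 65 in BxPC3, at percentiles 99.5 and 99.5 in SUIT2 and 99.9 and 99.8 in BxPC3. In Panc327 replicate 1 it ranked 2039 by width, at percentile 92.7. By the −log10 q of the peak caller it ranked 543 and 323 in SUIT2, 477 and 1310 in BxPC3, and 15026 of 27776 in Panc327 replicate 1. So the Panc327 peak was broad within its list but of middling strength, at percentile 45.8 by −log10 q. Ranks come from lists of different length and place each peak within its own library.

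At the summit of this peak the relative pile-up was 187 and 190 in SUIT2, 119 and 111 in BxPC3, and 37.0 in Panc327 replicate 1. SUIT2 averaged 189 ± 1.57 and BxPC3 115 ± 5.76 (SD, n = 2 each), a ratio of 1.64, with no overlap of the libraries. Over the 16806 regions called in both libraries of both these lines, the median ratio was 1.23; 58.2% had both SUIT2 libraries higher and 29.9% had both lower. The authors' folds over local background were 117 and 149 in SUIT2, 79.0 and 78.0 in BxPC3, and 22.4 in Panc327 replicate 1. The summits in SUIT2 and BxPC3 lay 364 to 416 bp after the gene start, within 52 bp of each other. The summit in Panc327 replicate 1 lay at −150 bp, upstream of the gene start.

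**Figure D3:**
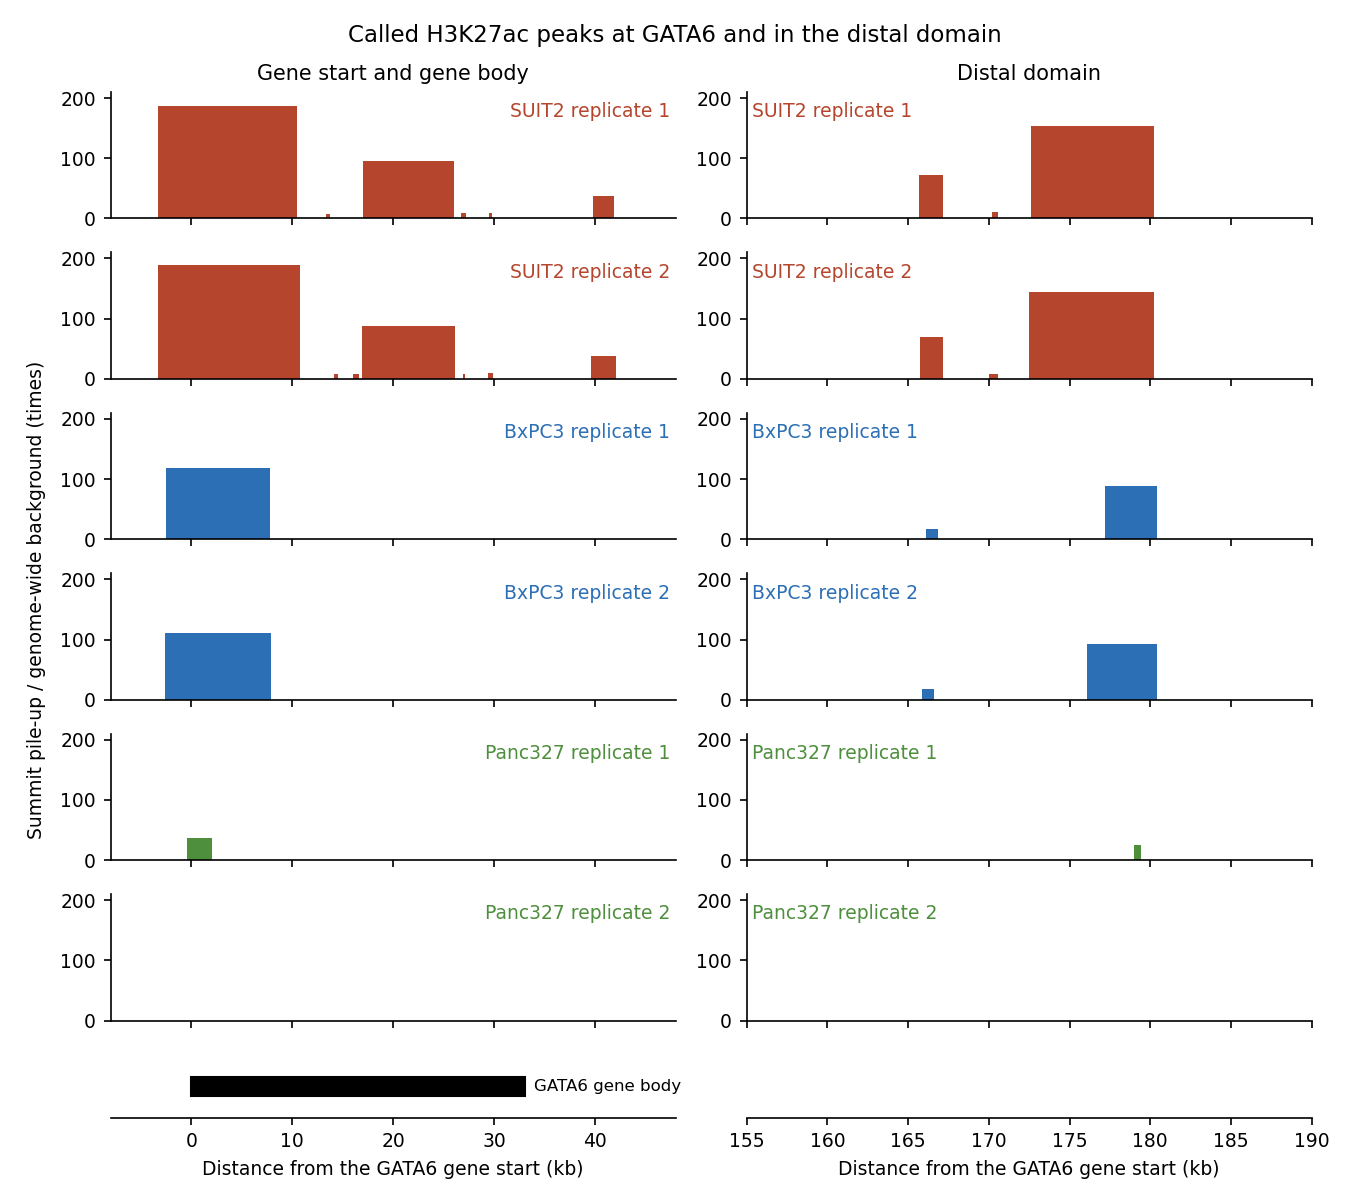
Enlarged views of the gene start and gene body (left) and of the distal domain (right), by distance from the GATA6 gene start in kb; bar height is the relative pile-up at the summit in times the genome-wide background. The SUIT2 peaks over the start are 13.8 and 14.0 kb wide against 10.3 and 10.5 kb in BxPC3 and 2.55 kb in Panc327 replicate 1, and the peak within the gene body is drawn for SUIT2 libraries only.

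A further strong element lay far downstream of the gene. This distal domain spanned 19921880 to 19929845 over all libraries, 172 to 180 kb after the gene start. In SUIT2 the peak was 7.66 and 7.74 kb wide with relative pile-ups of 154 and 144. In BxPC3 it was 3.26 and 4.34 kb wide with relative pile-ups of 88.8 and 92.7. In Panc327 replicate 1 it was 0.407 kb wide with a relative pile-up of 24.7, and in replicate 2 it was not called. SUIT2 averaged 149 ± 7.52 and BxPC3 90.8 ± 2.72 (SD, n = 2 each), a ratio of 1.64, as at the gene start. The authors' folds were 117 and 103 in SUIT2 and 49.1 and 55.1 in BxPC3. By fold the log2 ratio of SUIT2 to BxPC3 was 1.08 here and 0.76 at the gene start, so the equal ratio holds for relative pile-up only. The summits of the 5 libraries lay within 120 bp, from 19928431 to 19928551. The SUIT2 and BxPC3 peaks ended within 228 bp of each other on the far side, and the extra SUIT2 width lay on the side toward the gene.

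No region of the window was called in all 6 libraries, while 21.6% of all regions were. The gene start and the distal domain were the 2 regions called in 5 libraries, a class that held 3.39% of all regions. Both lacked a peak in Panc327 replicate 2 alone, which was so for 0.803% of all regions. They were also the strongest regions of the window in both SUIT2 and both BxPC3 libraries, and the only peaks of Panc327 replicate 1 there.

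Regions called in both libraries of a line, here termed marked, numbered 12 of 20 in SUIT2, 8 in BxPC3 and 0 in Panc327. Over all merged regions, 45.6% were marked in SUIT2, 49.7% in BxPC3 and 33.7% in Panc327. With a −log10 q of at least 20 required of every peak, the difference in counts was lost: of the 13 regions then left in the window, 7 were marked in SUIT2 and 7 in BxPC3, and 3 were marked in SUIT2 alone and 3 in BxPC3 alone. Over all 45091 regions at that threshold, 51.6% were marked in SUIT2 and 52.7% in BxPC3, with 13.7% in SUIT2 alone and 11.8% in BxPC3 alone. Of the line-specific classes at the deposited threshold, 0 of 20 regions were marked in Panc327 alone (5.79% of all regions), 0 were missing from SUIT2 alone (3.82%) and 0 from BxPC3 alone (1.17%). Among 20 regions, counts of 0 are near such small shares. Marked in both SUIT2 and BxPC3 were 5 of 20, near the 28.5% over all regions. A further 5 regions were called in a single library, also near the 25.3% over all regions.

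Marked in SUIT2 with no peak in the other 4 libraries were 7 of the 20 regions, against 13.0% of all regions. The broadest lay within the gene body, 16.9 to 26.1 kb after the gene start, from 19766283 to 19775523. It was called as a peak of 9.05 and 9.24 kb in SUIT2 replicates 1 and 2, with relative pile-ups of 95.7 and 88.1. Both values were far above the lowest callable heights of the BxPC3 libraries, 8.42 and 7.43, and of the Panc327 libraries, 9.60 and 6.66. Next by width came a region 39.6 to 42.0 kb after the start (37.1 and 38.2 in SUIT2), past the end of the gene. It was followed by regions 80.8 to 82.1 kb (15.2 and 16.3), 54.0 to 55.1 kb (10.6 and 13.6) and 170 to 171 kb after the start (10.03 and 8.31). The remaining 2 lay in the gene body, 26.7 to 27.2 kb (8.51 and 8.31) and 29.4 to 29.9 kb after the start (8.51 and 10.2).

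Of these 7 regions, 3 had a relative pile-up under 11 in both SUIT2 libraries. Such heights were near the lowest callable ones in BxPC3 and in Panc327 replicate 1, so a signal of that size could have gone undetected there. The region 54.0 to 55.1 kb after the start was also weak in SUIT2 replicate 1, at 10.6 with a −log10 q of 14.9. With a −log10 q of at least 20, 3 regions were marked in SUIT2 alone.

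Marked in BxPC3 alone were 3 of the 20 regions, near the 12.9% over all regions. They lay at 19880150 to 19880624, 19880872 to 19882074 and 19965377 to 19965775, which is 131 to 133 kb and 216 kb after the gene start. Their relative pile-ups in BxPC3 were 13.4 and 14.3, 28.0 and 32.7, and 19.5 and 20.1. All were above the lowest callable heights of SUIT2, 6.08 and 5.82, where no peak was called. The last of them was the most distal region of the window in any library.

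**Figure D4:**
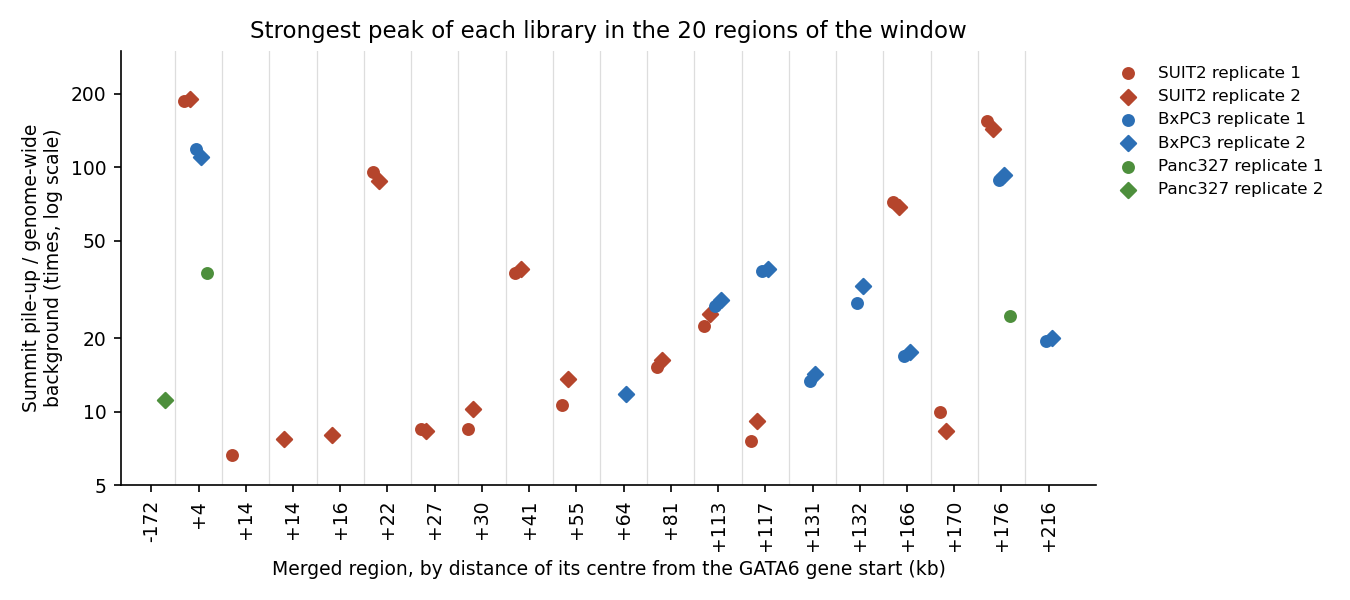
Relative pile-up of the strongest peak of each library in each of the 20 merged regions (vertical axis, log scale, times the genome-wide background), ordered by distance of the region's centre from the GATA6 gene start in kb; a missing point means that no peak was called. SUIT2 points stand alone at 95.7 and 88.1 in the gene body, and BxPC3 points stand above SUIT2 points at 37.5 and 38.5 against 7.60 and 9.14, 117 kb after the start.

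Regions marked in SUIT2 and BxPC3 and empty in Panc327 numbered 3 of 20, against 4.18% of all regions, and at 2 of them SUIT2 and BxPC3 heights differed by both relative pile-up and fold. At 19915068 to 19916591, 166 to 167 kb after the start, the relative pile-up was 72.0 and 69.0 in SUIT2 against 16.8 and 17.6 in BxPC3. The SUIT2 mean of 70.5 ± 2.16 was 4.09 times the BxPC3 mean of 17.2 ± 0.532 (SD, n = 2 each). At 19864810 to 19867897, 115 to 118 kb after the start, the order was the reverse, with 7.60 and 9.14 in SUIT2 against 37.5 and 38.5 in BxPC3. There the SUIT2 mean of 8.37 ± 1.09 was 0.220 times the BxPC3 mean of 38.0 ± 0.690. The SUIT2 peaks there were near the lowest callable heights, 6.08 and 5.82, and covered 10.2 and 26.7% of the region. Their −log10 q of 10.8 and 19.2 fell short of 20, so the region counts as marked in SUIT2 at the deposited threshold only. The third, at 19861860 to 19863707, had similar heights, 22.5 and 25.2 in SUIT2 and 27.2 and 28.6 in BxPC3, a ratio of 0.855. By the authors' fold this last region overlapped between the lines, with 12.505 and 19.95 in SUIT2 and 16.4 and 15.6 in BxPC3. The log2 ratio was 0.022 by fold and −0.23 by relative pile-up.

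Among the 5 regions that SUIT2 and BxPC3 shared, relative pile-up was therefore higher in both SUIT2 libraries at 3 and lower at 2, and the median ratio was 1.64. Over all 16806 such regions 58.2% were higher and 29.9% lower in both SUIT2 libraries, with a median ratio of 1.23, so the count at the locus was near the background. The region 115 to 118 kb after the start counts as shared through SUIT2 peaks near the lowest callable heights. Bases called in both libraries of both lines came to 15.5 kb. That was 40.8% of the 38.0 kb called in both SUIT2 libraries and 77.1% of the 20.1 kb called in both BxPC3 libraries. These shares differ only because the totals do, and the same shares over the genome were not determined.

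The layout of the locus was reproducible within SUIT2 and BxPC3. The Jaccard index, the length called in both lists over the length called in either, was 0.889 in the window for the SUIT2 pair and 0.862 for the BxPC3 pair. For the Panc327 pair it was 0, as its libraries shared no called base. SUIT2 and BxPC3 libraries had a mean index of 0.370 with each other, SUIT2 and Panc327 0.0367, and BxPC3 and Panc327 0.0683. Within lines the mean was 0.584 and between lines 0.158, a difference of 0.425 (exact permutation test over 15 splits, one-sided, p = 0.0667, the smallest possible).

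The Panc327 libraries went against each other at this locus. Whether they differ in identity or quality was not tested, so the Panc327 mean and its count of marked regions describe these 2 libraries and may not hold for the line. Replicate 1 had peaks at the gene start and the distal domain, both inside peaks of SUIT2 and BxPC3. Replicate 2 had a single peak of 340 bp, 19577313 to 19577652, 172 kb before the gene start, with a relative pile-up of 11.2. No other library had a peak there. After it, replicate 2 had no peak for 859 kb. In replicate 1, 15072 peaks had a −log10 q at least as high as the peak at the gene start, and 244 of them (1.62%) had no overlapping peak in replicate 2. For peaks at least as strong as that at the distal domain the share was 6.86%, and over all replicate 1 peaks 19.5%. A relative pile-up of 37.0, as in replicate 1, would have passed the lowest callable height of 6.66 in replicate 2, but replicate 2 heights were also lower in general, with a median of 19.3 in replicate 2 and 46.6 in replicate 1. The lists give no value for a position without a peak, so the level at the GATA6 start in replicate 2 is not known beyond its absence from the list.

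Local background at peaks of the locus, taken to come from the input libraries, stayed within 2.04 times the genome-wide level. At peaks of the window the local background, in multiples of the genome-wide background, had a median of 1.23 and 1.00 in SUIT2 replicates 1 and 2, 1.42 and 1.00 in BxPC3, and 1.08 and 1.67 in Panc327. The Panc327 medians rest on 2 peaks and 1 peak. Over all peaks of each list the medians were 1.08 and 1.00 in SUIT2, 1.23 and 1.08 in BxPC3, and 1.26 and 1.34 in Panc327. Within 1 Mb of the gene start every library had a median between 1.00 and 1.23. At the peak over the gene start the ratio was 1.30 and 1.00 in SUIT2, 1.00 and 1.00 in BxPC3, and 1.00 in Panc327 replicate 1. This background cannot be below the genome-wide level, so a lower DNA copy number of the locus in any line could not be seen in it. The part of copy number in these results was not tested.

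**Figure D5:**
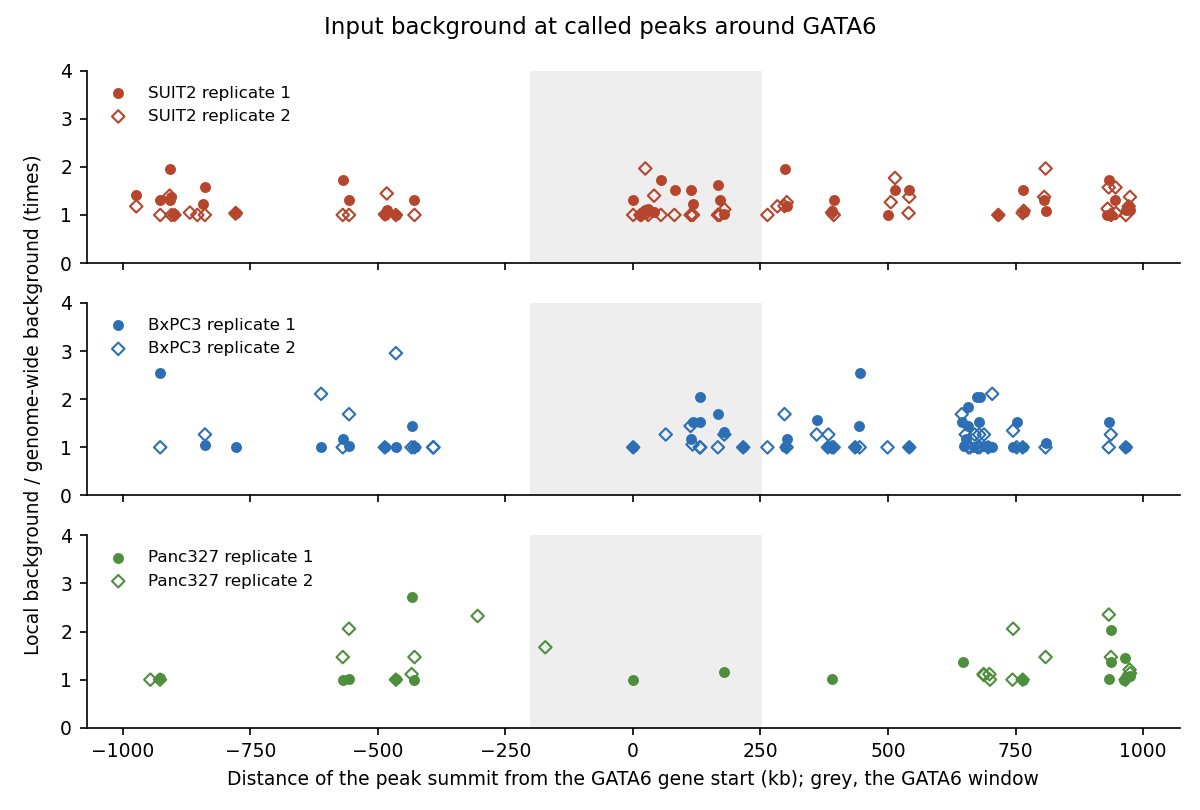
Local background, taken to come from the input libraries, at each called peak within 1 Mb of the GATA6 gene start. The vertical axis is linear, in multiples of the library's genome-wide background. The horizontal axis is the distance of the peak's summit from the gene start in kb. The grey band is the window. No peak of the window lies above 2.04 times, and Panc327 libraries have few points in the band.

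Panc327 called peaks on either side of the locus, but fewer than each SUIT2 and BxPC3 library. Its whole lists held 27776 and 29139 peaks, against 29983 to 38335 in the other lines. In the 1 Mb before the window, peak summits numbered 17 and 17 in SUIT2, 11 and 14 in BxPC3, and 7 and 9 in Panc327. In the 1 Mb after it they numbered 26 and 28 in SUIT2, 28 and 31 in BxPC3, and 12 and 15 in Panc327. The nearest peak before the window lay 192 to 228 kb away in SUIT2 and BxPC3, and 228 and 105 kb away in Panc327 replicates 1 and 2. The nearest peak after the window lay 12.8 to 45.7 kb away in SUIT2 and BxPC3, and 140 and 436 kb away in Panc327 replicates 1 and 2.

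Joining neighbouring peaks over the default stitching distance of super-enhancer calling (ROSE) placed the locus among the high-ranking clusters of SUIT2 and BxPC3. Clusters were ranked by the sum over peaks of width times relative pile-up. The cluster at the gene start ranked 95 of 18134 and 98 of 18540 in SUIT2, spanning 45.2 and 58.4 kb with 6 and 8 peaks. In BxPC3 it was the single peak over the start and ranked 160 of 19753 and 276 of 21283. In Panc327 replicate 1 it ranked 8940 of 16362. The distal domain formed a cluster with the region 166 kb after the start, which ranked 591 and 672 in SUIT2 and 2461 and 1841 in BxPC3. The sum uses the height at the summit for the whole peak, so it overstates broad peaks with a narrow top.

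The windows most like the GATA6 window, by Euclidean distance of covered kb over the 6 libraries, were on chromosome 22 from 37350001 to 37800000 (3.54 kb away), chromosome X from 12600001 to 13050000 (5.42 kb) and chromosome 10 from 32850001 to 33300000 (8.87 kb). In the nearest of them, peaks covered 41.6 and 42.8 kb in SUIT2, 21.2 and 23.2 kb in BxPC3, and 4.03 and 1.86 kb in Panc327. The likeness rests on 6 libraries of 3 lines.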

How the data were processed

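The samples were 6 H3K27ac ChIP and 6 input libraries of SUIT2, BxPC3 and Panc327 cells, grouped by the labels' titles. Tools named in the submitters' processing notes are Bowtie 1.1.1, bcl2fastq 1.8.4 and MACS2, with the hg19 build; version and settings of MACS2 are not given in the sources used here. For each ChIP library the authors deposited a narrowPeak list. The deposited fold of a peak is the authors' ratio of pile-up to local background. The authors' columns of −log10 p-values and of −log10 q-values come from the peak caller, and the lowest −log10 p of a list was about 10. The deposited score column was not used, and the summit is the authors' offset from the peak start. No 2 lists were identical.

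Peaks sharing at least 1 bp were merged into regions. Pile-up and local background were recovered from fold and −log10 p, assuming the usual MACS2 form (pseudocount of 1, Poisson tail). Pile-ups came out as whole reads, within 0.05, for 99.98 to 100% of the peaks of each list, after fitted scales of 0.7518 and 0.6516 in BxPC3 replicates 1 and 2. The local background was taken to come from the input libraries, which the sources used here do not state. The lowest local background of a list was taken as its genome-wide background. The scripts were tested on simulated data. Computation used matplotlib 3.10.9, scipy 1.17.1, numpy 2.4.6, and pandas 2.3.3 under Python 3.11.15. The members, regions to name and tests were chosen with earlier results of these data known. Named are the region of the gene start, the 5 widest, and those of 1 line alone or missing from 1 line (up to 5 each). Lists of other transcription factor genes and of cell type markers need gene positions on hg19 and were not analysed here. Whether replicate numbers mark a shared batch could not be decided. In the window, libraries of different lines had a mean Jaccard index of 0.160 with the same number and 0.157 with different numbers. All indices with Panc327 replicate 2 were 0, and the rest come from a single window, so these means can neither show nor exclude pairing.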

Additional observations from a re-analysis of the deposited data

How the results depend on the processing

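Of 189 values under other settings, 1 changed direction. A further 15 moved by more than the spread between libraries (for counts and ranks, by over 1.5 times). With a −log10 q of at least 20, peaks covered 38.0 kb in SUIT2, and 7 regions were marked in SUIT2 and 7 in BxPC3, 3 of them in SUIT2 alone and 3 in BxPC3 alone, so the difference in region counts between these lines was lost. In a window narrowed to 100 kb on either side of the gene body, peaks covered 30.7 kb in SUIT2 and 16.8 kb in BxPC3. The distal domain and the regions 166, 170 and 216 kb after the gene start lie outside that window. With peaks joined within 5 kb, the cluster at the gene start ranked 100 and 173 in BxPC3 replicates 1 and 2. Equal list lengths (27776 peaks), 50% coverage of a region and joining within 1 kb moved no count by over 1.5 times. Leaving out 1 library at a time, covered length ran from 38.8 to 41.9 kb in SUIT2, 20.7 to 22.7 kb in BxPC3 and 0.340 to 2.96 kb in Panc327. With 2 libraries a line, these limits are the values of the single libraries and add no further check. Marked regions ran from 12 to 14 in SUIT2, 8 to 9 in BxPC3 and 0 to 2 in Panc327, with 1 left without Panc327 replicate 1 and 2 without replicate 2. Such counts can only stay or rise, because a peak in the library left is then enough. Regions of all libraries ran from 0 to 2, of Panc327 alone from 0 to 1, and of those missing from Panc327 from 3 to 5. The test of covered length over the lines kept p = 0.0667 (exact permutation). The Jaccard difference ran from 0.294 to 0.691, and its exact permutation p was 0.2 without either SUIT2 or either BxPC3 library and 0.0667 without either Panc327 library. With libraries permuted only within replicate numbers (replicate block), the exact permutation p for covered length was 0.167, the smallest that block allows. With the authors' fold in place of relative pile-up, chosen after the data were seen, the log2 ratio of SUIT2 to BxPC3 was 0.022 in place of −0.23 for the region 113 kb after the gene start. It was −1.84 in place of −2.18 at 117 kb, 2.16 in place of 2.03 at 166 kb and 1.08 in place of 0.72 at the distal domain. A MACS2 list shows only what passed its threshold, so 2 libraries a line and that threshold limit every absence reported.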
